A study of Homo sapiens with 20 samples.

Results

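The sites described here are the places in wild-type (WT) M14 cells where ChIP-seq peaks of STAG1, of STAG2 or of both were called. M14 is an established human melanoma line. Per the labels of the first experiment the cells carried a doxycycline-inducible shRNA against STAG2, and WT means these cells kept for 5 d without doxycycline and STAG2-KD the same cells kept with it, so both groups carried the shRNA. The labels of the second experiment name the line and the genotype, WT or STAG2-KD, but no doxycycline, and no label says whether the line is a clone. The same lots of the STAG1 and STAG2 antibodies were given for both. Each antibody had 1 WT library in each of 2 sets, where titles without a number form set 1 and titles ending in 2 form set 2. The sets differed in chromatin extraction and in size selection, to 200 to 600 bp with beads in set 1 and to 200 to 500 bp on a gel in set 2. The 4 WT lists of STAG1 and STAG2 held 359948 of the 1599606 peaks in the 16 lists of the series, counted on chromosomes 1 to 22 and X. STAG1 and STAG2 peaks were compared within a set and were called shared where their intervals overlapped by at least 1 bp, and otherwise STAG1-only or STAG2-only.

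Cohesin is a protein ring that extrudes and holds chromatin loops. Its core holds SMC1A, and each mitotic cohesin ring carries either STAG1 or STAG2, never both. A shared site is an overlap of peak calls in a population of cells, and its use by both kinds of ring was not tested. Loop extrusion often halts where the zinc finger protein CTCF is bound to DNA, and CTCF contacts the STAG subunit directly. The STAG2 gene is recurrently mutated in several tumours.

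Example sequences of the classes are given first, on the forward strand of hg19. Shared sites are represented by the 3 strongest over the 4 lists that held exactly 1 match to a CTCF core motif outside exons, and the capitals mark that motif. They lie at chr6:14211492-14211571, 93.5 kb from the nearest protein-coding start (CD83), at chr5:53813381-53813460, 0.083 kb from a start of SNX18, and at chr2:8826024-8826103, 2.81 kb from a start of ID2.
CD83 region: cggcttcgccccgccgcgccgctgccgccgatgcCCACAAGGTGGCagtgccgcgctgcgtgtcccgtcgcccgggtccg
SNX18 promoter: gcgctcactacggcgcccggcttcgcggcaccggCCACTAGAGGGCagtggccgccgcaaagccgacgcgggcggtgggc
ID2 region: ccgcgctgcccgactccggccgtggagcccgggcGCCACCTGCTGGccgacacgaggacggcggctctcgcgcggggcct

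Among STAG1-only peaks above percentile 60 of their list, most lay at promoters, and 24.1% in set 1 and 10.9% in set 2 held the cyclic AMP response element (CRE) TGACGTCA, the site of the CREB and ATF family. Among all STAG1-only peaks the CRE share was 0.967% in set 1 and 0.329% in set 2. Shared STAG1 peaks held it in 0.276% and 0.347%, so the CRE does not mark the class as a whole. Of the STAG1-only peaks above percentile 60 in set 1 with this motif, 6 of the strongest are shown with the CRE in capitals, at chr11:60609513-60609542, chr4:8442463-8442492, chr16:2318104-2318133, chr12:10766179-10766208, chr17:33914244-33914273 and chr16:68057127-68057156.
CCDC86: gcggcgactccTGACGTCAtaggaaggcgc
ACOX3/TRMT44: ccccgcctccaTGACGTCAacgcgccgcgc
RNPS1: cggcgccgctcTGACGTCAgagtcaaggag
MAGOHB: gcgccttgcagTGACGTCAtcgcgcggaat
AP2B1: gcgcaccccgaTGACGTCAcgcggcgacgt
DDX28/DUS2: gcgcacatcagTGACGTCAcggacgcgccg

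Of the 5 STAG1-only sites with the lowest sum of ranks over both sets, BAP1/PHF7 (chr3:52444030-52444059) and KLC4/MRPL2 (chr6:43027154-43027183), besides ACOX3/TRMT44, held the shorter TGACGT. It is in capitals here and lies on the reverse strand at BAP1/PHF7.
BAP1/PHF7: cgccggcggcagACGTCAccaaggcgcgac
KLC4/MRPL2: ggtgctcctagaTGACGTtgactgtccggc

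For STAG2-only sites are shown a stretch of the coding sequence of FGA (chr4:155506802-155506902) and an intergenic site on chromosome 21 (chr21:46255446-46255546), with no letters in capitals because none of the searched motifs lay in them.
FGA coding exon: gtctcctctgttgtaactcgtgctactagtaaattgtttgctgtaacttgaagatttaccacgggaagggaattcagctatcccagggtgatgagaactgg
Chromosome 21 site: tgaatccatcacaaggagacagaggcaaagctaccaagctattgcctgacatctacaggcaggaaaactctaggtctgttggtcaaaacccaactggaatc

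Most STAG sites were shared. The WT STAG1 list held 63479 peaks in set 1, of which 5794 had no STAG2 peak (9.13%), and 98437 in set 2, of which 11234 had none (11.4%). The WT STAG2 list held 79048 peaks in set 1, of which 22662 had no STAG1 peak (28.7%), and 118984 in set 2, of which 34418 had none (28.9%). Merged into sites, 55893 of 84343 in set 1 and 82670 of 128308 in set 2 were shared. STAG2-only sites outnumbered STAG1-only sites in both sets, 22660 against 5790 in set 1 and 34411 against 11227 in set 2. The share without the other STAG was 10.3% ± 1.62 for STAG1 and 28.8% ± 0.182 for STAG2 (SD, n = 2), a mean difference of −18.5 percentage points (two-sided exact permutation test, p = 0.33, adjusted p = 0.394 over 13 tests). With 2 values against 2, 0.33 is the smallest p this test can give, so no comparison here can reach 0.05. The values of the sets did not overlap between the antibodies.

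The difference restated the lengths of the lists. Overlaps were nearly one to one, so lists of equal length must give nearly equal shares, and when the strongest 58418 peaks were taken from every list, the shares were 14.6% for STAG1 and 16.3% for STAG2 in set 1, and 15.5% and 15.8% in set 2, a mean difference of −1.04 points. The STAG1 and STAG2 lists of a set shared 1 background value, which shows that MACS2 had scaled both down to the same size. The depth recovered from the fold and p columns was 46.7 M reads for STAG1 and 44.7 M for STAG2 in set 1, and 71.7 M and 64.9 M in set 2, so the shorter lists came from the slightly deeper libraries. By shared base pairs, the Jaccard index of STAG1 with STAG2 was 0.62 in set 1 and 0.618 in set 2. Between the sets it was 0.404 for STAG1 with itself and 0.425 for STAG2 with itself, but peak widths and thresholds differ between the sets and lower this index. Counted by peaks, 97.8% of set 1 STAG1 peaks overlapped a set 2 STAG1 peak and 90.9% a set 1 STAG2 peak, and 98.1% of set 1 STAG2 peaks overlapped a set 2 STAG2 peak and 71.3% a set 1 STAG1 peak.

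Sites of a single STAG were weak. Within its list, by −log10 p and with 100 as the strongest, the median percentile of STAG1-only peaks was 15.3 in set 1 and 16.8 in set 2, against 54.4 and 55.5 for shared STAG1 peaks. For STAG2-only peaks it was 19.02 and 20.5, against 64.3 and 64.4 for shared STAG2 peaks. Both differences were larger than the spread between sets, 38.9 ± 0.24 points for STAG1 and 44.6 ± 0.963 for STAG2 (exact permutation p = 0.33, adjusted p = 0.394). The median fold enrichment was 4.59 for STAG1-only and 12.2 for shared STAG1 peaks in set 1, and 2.88 and 5.64 in set 2. STAG2-only peaks had a median fold of 4.63 against 13.4 in set 1 and 3.02 against 6.87 in set 2. STAG1-only peaks had median widths of 170 bp in set 1 and 233 bp in set 2, against 425 and 628 bp for shared STAG1 peaks.

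**Figure D1:**
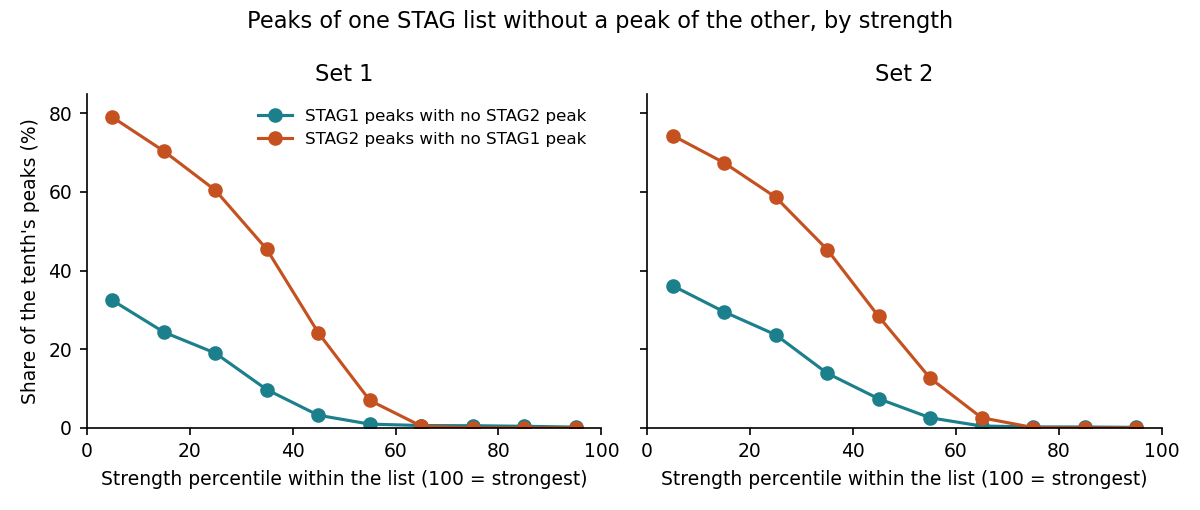
Share of peaks in each 10-percentile bin of a WT list (x axis, 100 = strongest) that had no peak of the other STAG (y axis, %), for STAG1 and STAG2 in each set, 1 point per bin. In the weakest bin the share was 32.4% and 36.1% for STAG1 and 79.0% and 74.3% for STAG2 in sets 1 and 2, and it fell to at most 0.189% in the strongest bin.

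The upper ends of the lists differed. Above percentile 90 no STAG2 peak of either set lacked STAG1, whereas 12 STAG1 peaks lacked STAG2 in each set. Between percentiles 70 and 100, 1 STAG2-only peak was left in set 1 and 9 in set 2, against 71 and 56 STAG1-only peaks. These strong STAG1-only peaks are described below.

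CTCF and SMC1A went in opposite directions between the classes. A CTCF peak overlapped 52.7% of STAG1-only peaks in set 1 and 45.7% in set 2, but 32.8% and 31.8% of STAG2-only peaks. SMC1A overlapped 38.4% and 44.4% of STAG1-only peaks, but 51.8% and 56.5% of STAG2-only peaks. STAG1-only peaks thus had more CTCF by 16.9 ± 4.27 points and less SMC1A by 12.8 ± 0.915 points (mean ± SD of the set differences, n = 2), and in neither case did the sets of the classes overlap (exact permutation p = 0.33, adjusted p = 0.394 for each). Shared peaks had CTCF at 82.0% to 88.6% and SMC1A at 86.3% to 91.0%.

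**Figure D2:**
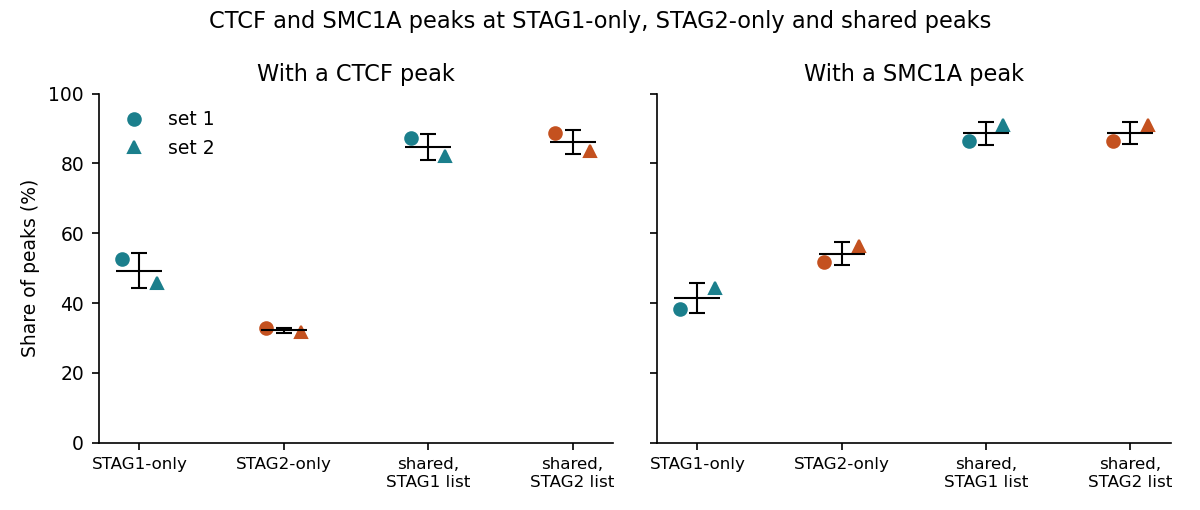
Share of peaks that overlapped a WT CTCF peak (left) or a WT SMC1A peak (right) of the same set (y axis, %), by class (x axis), with circles for set 1, triangles for set 2, and bars for the mean ± SD of the 2 sets. STAG1-only peaks lie above STAG2-only peaks for CTCF and below them for SMC1A, and all shared values lie above 80.

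The orders of CTCF and SMC1A remained when classes were weighed equally over bins of strength, with differences of 18.3 points for CTCF and −18.5 for SMC1A. They also remained outside promoters, at 21.6 and −10.8 points, and with a window of 100 bp to each side of the summit in place of the whole peak, at 17.7 and −11.7 points, 2 settings chosen after the data were seen. Among the strongest 50% of each list the order of CTCF turned in set 1, where 37.5% of STAG1-only and 52.0% of STAG2-only peaks had CTCF, but not in set 2, with 72.2% and 37.3%. SMC1A without CTCF was found at 33.6% and 39.3% of STAG2-only peaks and at 16.1% and 22.7% of STAG1-only peaks. CTCF without SMC1A was found at 30.4% and 24.04% of STAG1-only peaks and at 14.6% of STAG2-only peaks in both sets.

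Many sites of a single STAG had neither partner. Neither CTCF nor SMC1A overlapped 31.2% and 31.6% of STAG1-only peaks or 33.6% and 28.9% of STAG2-only peaks, against 1.66% to 3.34% of shared peaks. The CTCF peaks that did overlap STAG1-only or STAG2-only peaks were also weaker, at median percentiles of 34.9 to 36.8 of the CTCF list, against 70.9 to 71.6 under shared peaks.

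The CTCF core motif followed the CTCF peaks. Within 100 bp of the summit it was found at 6.92% of STAG1-only peaks in set 1 and 4.03% in set 2, at 3.14% and 2.04% of STAG2-only peaks, and at 13.1% to 19.8% of shared peaks, while windows 5 kb away held it at 0.565% to 0.855%. The difference between STAG1-only and STAG2-only was 2.89 ± 1.26 points, with no overlap of the sets (exact permutation p = 0.33, adjusted p = 0.394). This core is short and misses many CTCF sites, so the shares serve for comparison only. TGANTCA, the motif of AP-1 (the JUN and FOS family, which binds enhancers), was found at 12.8% and 11.9% of STAG2-only peaks and 7.0% and 13.6% of STAG1-only peaks, against 5.56% to 6.22% of the windows 5 kb away. For AP-1 the classes therefore overlapped across the sets. TEAD sites, ACATTCC, were found at 4.1% and 3.72% of STAG2-only and 3.09% and 3.04% of STAG1-only peaks, with 2.71% to 2.95% in the windows 5 kb away. All motifs were searched on both strands.

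Promoters, defined as places within 1 kb of an annotated transcript start, held 25.8% of STAG1-only peaks in set 1 and 17.9% in set 2, and 34.9% and 19.8% of STAG2-only peaks. The difference of −5.55 ± 5.12 points was close to the spread between the sets, and the values of the classes overlapped (exact permutation p = 0.667, adjusted p = 0.667). It turned to 1.35 points when bins of strength were weighed equally, and to 29.4 points among the strongest 50% of each list. Shared STAG2 peaks were at promoters in 21.8% and 22.8%, and shared STAG1 peaks in 22.9% and 24%. Introns held 40.0% and 43.9% of STAG1-only and 42.4% and 51.5% of STAG2-only peaks, and intergenic sequence held 29.2% and 33.1% against 19.5% and 25.2%. The share of STAG2-only peaks ran over chromosomes from 24.1% (chromosome X) to 32.3% (chromosome 19) in set 1 and from 25.8% (chromosome 17) to 32.0% (chromosome 18) in set 2, and that of STAG1-only peaks from 6.95% to 10.9% and from 8.59% to 13.2%.

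The strongest STAG1-only peaks were mostly promoters. Above percentile 60 there were 108 STAG1-only peaks in set 1, of which 99.1% were at promoters, and 101 in set 2, of which 70.3% were. This depends on the percentile chosen, since above percentile 50 the shares were 82.1% and 31.2%, and in set 2 they were 15.5% between percentiles 50 and 60 and 44.4% between 60 and 70. Among shared STAG1 peaks promoters became rarer with strength, to 15.4% and 17.5% in the strongest bin, where CTCF overlapped 99.6% and 99.5% of them. Taking only promoters above percentile 60, CTCF overlapped 23.4% of the 107 STAG1-only peaks of set 1 and 33.8% of the 71 of set 2, against 97.8% and 97.6% of 4094 and 7439 equally strong shared peaks. SMC1A overlapped 48.6% and 60.6%, against 99.3% and 99.5%. Both groups were chosen by strength, so their high folds follow from the choice. The median fold was 28.7 in set 1 and 14.9 in set 2 for the STAG1-only promoters, and 30.4 and 14.4 for the shared ones. Summits of the STAG1-only promoters lay at a median of 18 bp and 36 bp from a transcript start, against 242.5 bp and 201 bp. The strong shared promoters without CTCF lay as close, at 14 bp and 21 bp. The percentile of 60 was chosen after the data were seen.

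**Figure D3:**
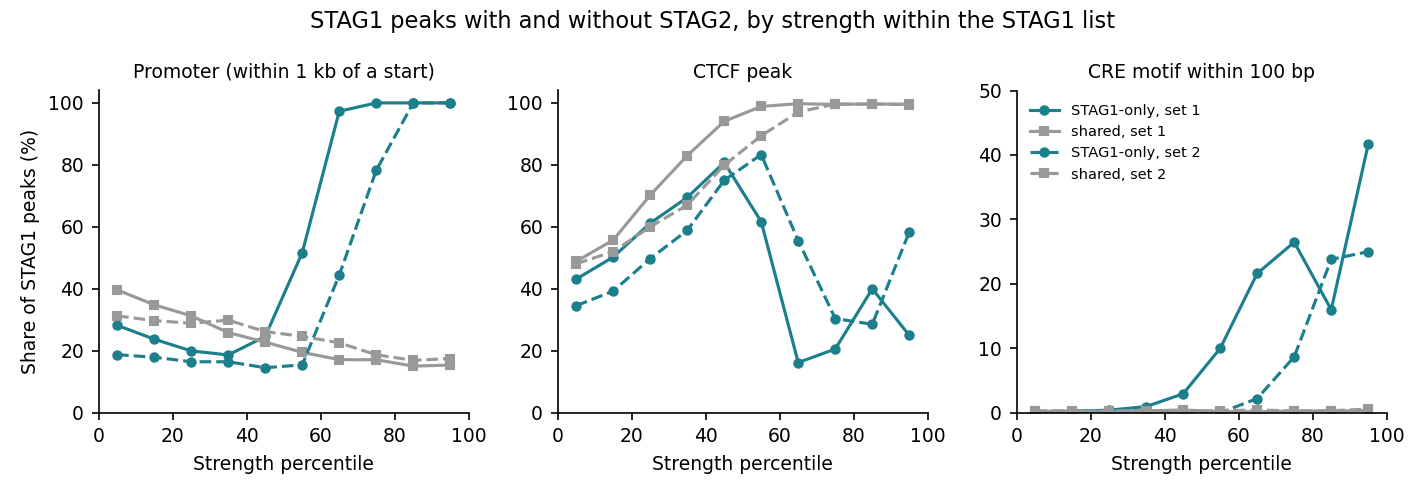
Share (y axes, %) of STAG1-only (teal) and shared (grey) STAG1 peaks at promoters (left), with a CTCF peak (middle) and with TGACGTCA within 100 bp of the summit (right), by strength percentile in the STAG1 list (x axes), solid lines for set 1 and dashed for set 2. In the strongest bin all 12 STAG1-only peaks of each set were promoters, and 41.7% and 25% of them held the CRE.

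The CRE was more frequent in these promoters than in equally strong shared ones. TGACGTCA lay within 100 bp of the summit in 26 of the 107 strong STAG1-only promoters of set 1 (24.3%) and in 10 of 71 in set 2 (14.1%), against 1.32% and 1.8% of the equally strong shared promoters. The background was 1.9% of 19748 windows of 201 bp at protein-coding starts. The shorter TGACGT, which includes the CRE and was added after the data were seen, was found in 62.6% and 45.1%, against 4.54% and 5.58% of the shared promoters and 6.74% of all starts, but strong shared promoters without a CTCF peak held it in 50.5% and 37.7%. These shared promoters without CTCF, 91 in set 1 and 175 in set 2, held the CRE at 21.98% and 15.4%, close to the STAG1-only promoters. A high CRE share was therefore not particular to promoters without STAG2, and most strong STAG1-only promoters lacked CTCF as well. The part of each was not tested. GGGCGG, the motif of SP and KLF factors, was found in 57.0% and 36.6% of strong STAG1-only promoters and in 48.5% of all protein-coding starts.

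Seen from the motif, STAG1 promoter peaks with a CRE lacked STAG2 in 52 of 173 cases in set 1 (30.1%), against 9.92% of those without it. In set 2 the shares were 9.49% and 8.76%, so the gap of set 1 was not seen there. STAG2 promoter peaks with a CRE lacked STAG1 in 36.5% and 11.7%, against 39.2% and 26.3% without it.

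At the single sites the difference was large. In the promoter between DPH3, a diphthamide synthesis gene, and OXNAD1 (chr3:16306156-16306833), STAG1 had a fold of 57.6 in set 1 and 29.0 in set 2, and no STAG2 peak was called in either. At BAP1, which encodes a nuclear deubiquitinase and tumour suppressor, and its neighbour PHF7 (chr3:52443671-52444312), STAG1 had folds of 61.8 and 32.0, with no STAG2, CTCF or SMC1A peak in either set. The promoter of ACOX3 and TRMT44 (chr4:8442148-8442859), where ACOX3 encodes a peroxisomal acyl-CoA oxidase, had STAG1 folds of 45.9 and 24.2 and a weak CTCF peak, with folds of 4.84 and 3.68. KLC4 and MRPL2 (chr6:43026894-43027492), a kinesin light chain and a mitochondrial ribosomal protein, had STAG1 folds of 38.3 and 22.4 and SMC1A folds of 6.73 and 4.70. FDXR (chr17:72869072-72869744), the mitochondrial ferredoxin reductase, had STAG1 folds of 41.1 and 24. All 5 kept a STAG1 peak in the STAG2-KD lists of both sets.

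Sites chosen in set 1 were then read in set 2, which the choice had not used. Of the 108 STAG1-only peaks above percentile 60 in set 1, 105 had a STAG1 peak in set 2, at a median percentile of 90.9. In 34 of the 108 (31.5%) STAG2 was again not called, whether or not STAG1 was. In the other 74 the STAG2 peak lay at a median percentile of 28.0, lower than that of STAG1 in all 74. Most of the promoters with no STAG2 peak in set 1 thus had a low one in set 2. At CCDC86, for example, STAG1 had a fold of 33.7 in set 2 and STAG2 one of 2.83, and at RNPS1, a splicing factor gene, the folds were 29.8 and 3.16.

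The same held for the weak sites. Over all 5794 STAG1-only peaks of set 1, 95.4% had a STAG1 peak and 76.9% a STAG2 peak in set 2, and where both were called STAG1 stood a median of 11.97 percentile points above STAG2. Over the 22662 STAG2-only peaks of set 1, 98.0% had a STAG2 peak and 67.3% a STAG1 peak in set 2, and STAG1 minus STAG2 was a median of −22.96 points. Shared STAG1 peaks of set 1 had a median of −3.76 points there. The order of ranks seen in set 1 was thus mostly found in set 2, while the absence of the other STAG mostly was not: 76.4% of STAG1-only and 67.3% of STAG2-only peaks of set 1 had both STAGs in the longer lists of set 2. In the reverse direction 91.1% of set 2 STAG1-only and 84.1% of set 2 STAG2-only peaks had neither STAG in set 1. Only 57 and 123 had both there, with a median STAG1 minus STAG2 of 0.215 and −15.8 points. STAG1 stood higher at 50.9% of the 57, so its order was not clear in this direction. Shared STAG1 peaks of set 2 had a median of −6.48 points in set 1.

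Sites that kept their class in both sets numbered 913 for STAG1 and 5491 for STAG2, which is 15.8% of the STAG1-only and 24.2% of the STAG2-only peaks of set 1, and 8.07% and 15.4% of those of set 2. The counts moved with the setting, since equal list lengths gave 3827 STAG1-only and 4337 STAG2-only sites. The 913 STAG1-only sites were at promoters in 19.7%, had CTCF in 45.6% in set 1 and 74.3% in set 2, and had SMC1A in 20.8% and 55.3%. The 5491 STAG2-only sites were at promoters in 22.2%, had CTCF in 21.1% and 37.1%, and had SMC1A in 32.9% and 74.8%. The opposite orders of CTCF and SMC1A were found in these sites too, but they are part of the same classes and no separate check.

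The STAG2-only sites named by their ranks in both sets were of several kinds, and 2 of them lay below percentile 60 in set 1. The CDK12 promoter (chr17:37617422-37617849), of a transcription elongation kinase, had STAG2 folds of 9.95 and 6.20. In the STAG2-KD lists the STAG2 folds there were higher, 52.7 and 30.5. Another was a coding exon of FGA (chr4:155506761-155506982), the fibrinogen alpha chain, with STAG2 folds of 13.9 and 10.6, no peak of STAG1, CTCF or SMC1A in WT, and none of STAG1 or STAG2 in STAG2-KD. A further site lay in KIF26B at a start of KIF26B-AS1 (chr1:245397984-245398369), with STAG2 folds of 10.7 and 11.01 and SMC1A folds of 9.75 and 4.92. The last was intergenic on chromosome 21 (chr21:46255323-46255654), 16.8 kb from SUMO3, with STAG2 folds of 9.83 and 10.7 and CTCF folds of 10.8 and 12.7.

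Shared sites differed in how STAG1 and STAG2 were balanced. At 56480 sites with both STAGs in both sets, the STAG1 minus STAG2 percentile had a median of −6.85 in set 1 and −3.76 in set 2. More peaks of one STAG alone lie under the shared peaks in the STAG2 list than in the STAG1 list, which lowers this difference. The lowering is larger at weak shared sites, since STAG2-only peaks filled 79.0% and 74.3% of the weakest bin and none of the strongest. Groups of sites are set beside this median, but they were not matched for strength. The difference in set 1 and in set 2 had a Pearson r of 0.659 and a Spearman rho of 0.733 over these sites, given as a description, since the 4 libraries are the only independent samples. STAG1 stood more than 20 points above STAG2 in both sets at 449 sites, and more than 20 points below it in both sets at 3345. Opposite leanings of that size were seen at 30.

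**Figure D4:**
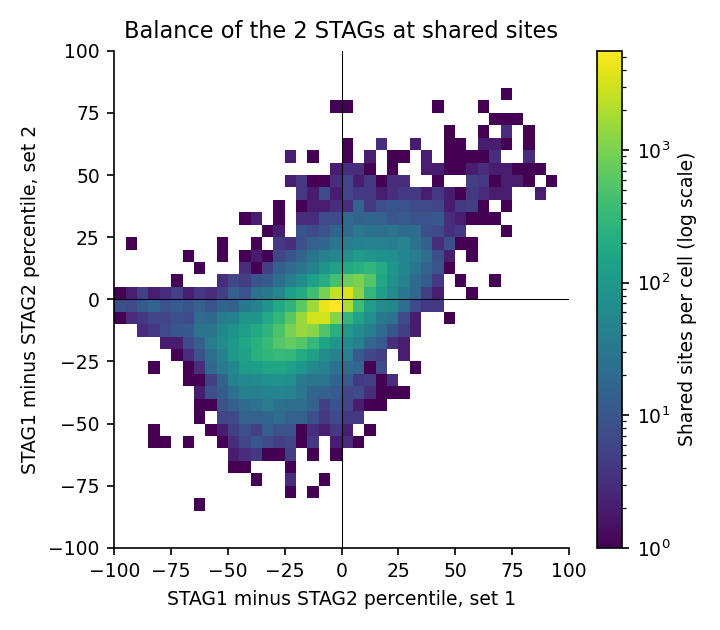
STAG1 minus STAG2 strength percentile at 56480 sites shared in both sets, set 1 (x axis) against set 2 (y axis), coloured by the number of sites per cell of 5 by 5 points on a log scale. The differences of the 2 sets rise together (Pearson r = 0.659), but large negative differences of set 1 were mostly smaller in set 2. Above 20 in both sets lay 449 sites, and below −20 in both lay 3345.

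Shared sites without CTCF had lower differences and were also weaker. In set 1 the median folds of sites with CTCF in neither set were 4.46 for STAG1 and 6.26 for STAG2. Sites with CTCF in both sets had 15.5 and 16.2. The part of strength in the differences was not tested. Where CTCF was called in both sets the median difference was −5.97 and −3.07 (49236 sites), and where it was called in neither set it was −21.5 and −16.1 (4262 sites). Outside promoters without CTCF it was −22.2 and −17.2. The 120 shared promoters with a CRE went the other way, with medians of 3.43 and 8.99, and their median folds were 11.2 for STAG1 and 6.56 for STAG2 in set 1, and 15.1 and 6.55 in set 2. Promoters without a CRE had medians of −12.0 and −6.58. The 33 sites with a CRE outside promoters had medians of −7.93 and −3.95. Sites that leaned to STAG1 by more than 20 points were at promoters in 50.6% and held the CRE in 9.35%, while those that leaned to STAG2 were at promoters in 35.9% and held it in 0.209%. AP-1 motifs were found at 10.0% of sites leaning to STAG2, 3.12% of those leaning to STAG1 and 6.17% of the sites within 20 points.

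The 3 shared sites most inclined to STAG1 in both sets were promoters. ABCF2 (chr7:150924138-150924769), an ATP-binding cassette protein, had STAG1 folds of 28.1 and 18.5 and STAG2 folds of 3.33 and 2.47. IDH3B (chr20:2644597-2645104), a subunit of the mitochondrial isocitrate dehydrogenase, had STAG1 folds of 24.6 and 16.4 and STAG2 folds of 3.49 and 2.19. MAPKAPK5 (chr12:112279448-112280325), a kinase of the p38 pathway, had STAG1 folds of 46.3 and 25.5 and STAG2 folds of 4.95 and 2.56, and it held a CRE at chr12:112279764-112279793, in capitals here.
MAPKAPK5: gtccgggcctaTGACGTCAttagcgcagcg

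The sites most inclined to STAG2 lay in HHAT (chr1:210547291-210547461), a palmitoyltransferase of Hedgehog proteins, at a start of the pseudogene RNU5A-8P, with STAG2 folds of 19.9 and 14.1 and STAG1 folds of 3.94 and 1.84, and in UBE2G1, a ubiquitin-conjugating enzyme. In UBE2G1 a pair of narrow STAG1 peaks (chr17:4268468-4268648 and chr17:4268818-4268999) overlapped the same STAG2 peak, with STAG2 folds of 24.9 and 18.9 against STAG1 folds of at most 3.98. The balanced sites at the top of all lists were led by an intergenic site near KCTD15 (chr19:34268795-34269504), with folds of 73.4 for STAG1 and 75.1 for STAG2 in set 1 and 47.0 and 50.6 in set 2.

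At CTCF sites the summits of STAG1 and STAG2 were compared by their distance from the motif. CTCF peaks with exactly 1 CTCF core motif within 100 bp and with peaks of all 4 antibodies numbered 10502 in set 1 and 11582 in set 2. The STAG1 summit lay a median of 20.5 bp and 17.5 bp to the 3′ side of the motif and the STAG2 summit 18.5 bp and 14.5 bp, while CTCF lay at 1.5 bp and −1.5 bp and SMC1A at −1.5 bp and 2.5 bp. On the 3′ side lay 85.2% and 64.0% of STAG1 summits and 81.0% and 61.3% of STAG2 summits. The STAG1 summit stood a median of 2 bp and 1 bp beyond that of STAG2, with middle ranges of −8 to 14 bp and −31 to 34 bp, and the summits lay within 20 bp of each other at 70.5% and 35.7% of sites, so a separation could not be told at this resolution.

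**Figure D5:**
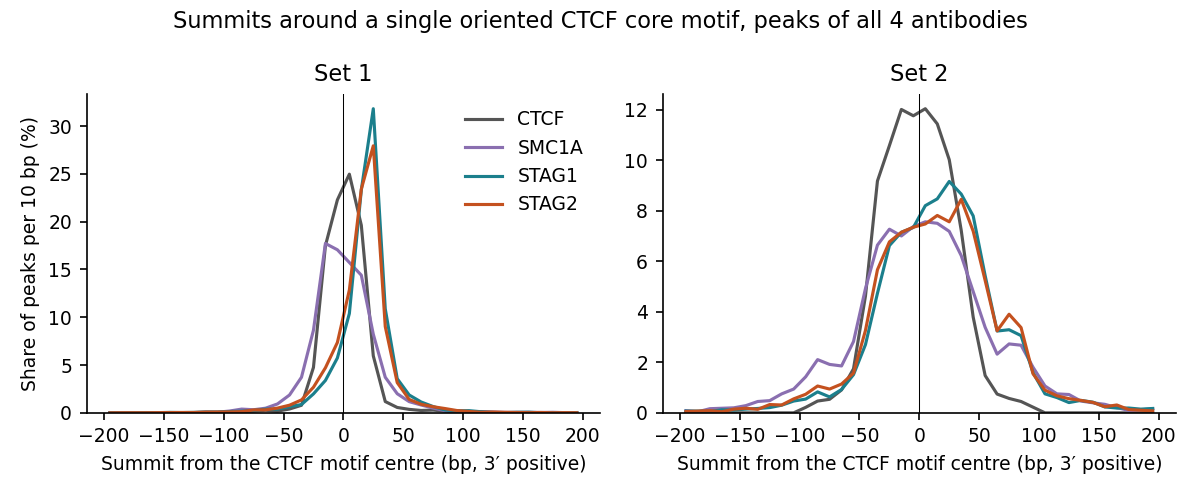
Distribution of peak summits around the centre of the CTCF core motif (x axis, bp along the motif strand, 3′ positive) as the share of peaks per 10 bp (y axis, %), for CTCF, SMC1A, STAG1 and STAG2 in each set. The STAG1 and STAG2 curves run together and peak to the 3′ side of those of CTCF and SMC1A, more sharply in set 1 than in set 2.

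Promoters of gene groups are described by state. Any annotated start counted, so the STAG1 and STAG2 values of a gene with several starts need not come from the same start. Of 20090 protein-coding genes, 40.6% had both STAGs within 1 kb of a start in set 1, 2.56% STAG1 alone and 14.7% STAG2 alone. In set 2 the shares were 61.7%, 1.69% and 7.68%. STAG1 alone was found in both sets at 75 genes and STAG2 alone at 441.

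Cohesin genes had both STAGs at 10 of 15 promoters in set 1 and 13 in set 2. At STAG1 itself the percentiles were 96.2 and 97.3 for STAG1 and STAG2 in set 1 and 99.6 and 99.9 in set 2, and at STAG2 they were 87.7 and 99.6, and 97.1 and 99.7. CDCA5, which encodes sororin, a protector of sister cohesion, had a higher percentile of STAG1 than of STAG2 in both sets, 89.6 against 62.5 and 92.2 against 67.1. ESCO2, an acetyltransferase of the ring, had STAG2 alone in both sets.

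Interferon genes had both STAGs at 9 of 20 promoters in set 1 and 18 in set 2, STAG1 alone at 2 and 0, and STAG2 alone at 6 and 1. IRF9, a subunit of the interferon-activated ISGF3 factor, had STAG1 percentiles of 59.0 and 66.1 and STAG2 percentiles of 72.2 and 82.8. STAT2, its partner, was the one with STAG2 alone in both sets, at percentiles of 35.4 and 38.0. CD274, which encodes PD-L1, had both in both sets, with STAG2 percentiles of 83.8 and 93.2 and STAG1 percentiles of 68.4 and 82.0. The median STAG1 minus STAG2 percentile at interferon promoters was −15.3 and −14.8, against −10.6 and −7.12 over all genes.

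Melanocyte lineage promoters had lower medians of the STAG1 minus STAG2 percentile, −24.1 and −19.2, but the gene groups were not matched for strength. None of the 15 had STAG1 alone in either set, 5 had STAG2 alone in set 1 and 2 in set 2. At DCT, the dopachrome tautomerase of pigment synthesis, the percentiles were 5.94 for STAG1 and 52.3 for STAG2 in set 1 and 36.1 and 75.04 in set 2. At MITF, the master factor of the lineage, they were 20.3 and 57.4, and 53.0 and 96.8. Over the bodies of these 15 genes, 42 of 78 STAG2 peaks were STAG2-only in set 1 (53.8%) and 62 of 132 in set 2 (47.0%). Of their STAG1 peaks, 4 of 44 (9.09%) and 3 of 80 (3.75%) were STAG1-only, against 9.11% and 10.6% over all protein-coding gene bodies. Of STAG2 peaks over the bodies of all protein-coding genes, 32.6% and 30.8% were STAG2-only. The liver list described below had shares of 53.1% and 59.0%, so a high share was not confined to the melanocyte list. That list was chosen for STAG2 peaks seen in these data and is no independent comparison. Of the melanocyte STAG2-only peaks MITF held 15 and 20, and SMC1A overlapped 19 of the 42 and 50 of the 62. Over all protein-coding gene bodies SMC1A overlapped 7703 of 13860 and 12139 of 19860 STAG2-only peaks. The melanocyte share was thus lower than that in set 1 and higher in set 2.

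MAPK feedback genes had both STAGs at 13 of 15 promoters in set 1 and all 15 in set 2, with medians of −21.1 and −12.5. At DUSP6, an ERK phosphatase, the percentiles were 30.2 for STAG1 and 63.3 for STAG2 in set 1 and 57.6 and 78.8 in set 2. PHLDA1 went the other way, with 82.6 and 78.6 in set 1 and 96.8 and 91.2 in set 2. Genes of the dedifferentiated state had both STAGs at 11 of 14 promoters in set 1 and 12 in set 2, with medians of −16.4 and −7.95, and AXL, a receptor tyrosine kinase, had STAG2 alone in both sets. Cytosolic ribosomal protein genes had both STAGs at 50 of 85 promoters in set 1 and 71 in set 2, STAG1 alone at 4 and 2, and STAG2 alone at 16 and 7. RPL30 and RPS3 had STAG1 alone in both sets, and RPL19 and RPS6 were among those with STAG2 alone in both.

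Genes of secreted liver proteins are a list chosen because earlier results of these data showed STAG2 peaks in ALB and FGA exons. Neither STAG was found at 9 of their 15 promoters in each set (60%), against 42.2% and 29.0% of all protein-coding genes. The bodies of the liver genes held 32 STAG2 peaks in set 1 and 39 in set 2. Of these, 17 and 23 were STAG2-only and 23 and 25 had the summit in an exon. The exon shares were 71.9% and 64.1%, against 22.6% and 19.7% of STAG2 peaks over the bodies of all protein-coding genes, and since the list was chosen for this pattern the values are a description. None of the 17 and 3 of the 23 overlapped SMC1A, against 7703 of 13860 and 12139 of 19860 STAG2-only peaks over all protein-coding gene bodies. In ALB, which encodes albumin, all 10 STAG2 peaks of set 1 and 10 of 11 of set 2 had the summit in an exon, although exons cover 14.1% of the gene, and so had all 3 and 4 STAG1 peaks. The part of exon sequence in these peaks was not tested.

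The STAG2-KD lists were read at the WT classes. Of STAG1-only peaks, 74.7% in set 1 and 52.2% in set 2 overlapped a STAG1 peak after knockdown and 12.8% and 29.7% a STAG2 peak. Of STAG2-only peaks, 28.0% and 42.8% overlapped a STAG2 peak after knockdown and 42.9% and 23.8% a STAG1 peak. Shared STAG1 peaks overlapped STAG1 in 95.5% and 90.8% and STAG2 in 83.3% and 92.1%. All strong STAG1-only peaks, above percentile 60, overlapped a STAG1 peak after knockdown in both sets, and 49.1% and 52.5% overlapped a STAG2 peak. The share of STAG2 peaks without STAG1 was 28.7% and 28.9% in WT and 6.91% and 21.1% in STAG2-KD, a difference of 14.8 ± 9.87 points (exact permutation p = 0.33, adjusted p = 0.394). With lists of equal length it was −0.0668 points, so this difference too was lost at equal list lengths.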

How the data were processed

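The series holds 16 peak lists, 1 per library, from ChIP of 4 proteins in WT and STAG2-KD M14 cells, of which the 4 WT lists of STAG1 and STAG2 are the subject here. The replicates are separate libraries, but no label says that they came from separate cultures, so p-values measure only the spread between these libraries. Input libraries have no list used here. The study describes alignment to hg19 by bowtie2, removal of poor reads and duplicates with samtools and picard, and peak calling by MACS2 relative to the input library. The submitters' processing notes name Bowtie2 and MACS2 for set 1, and CASAVA 1.4, BWA, SAMtools, Picard, MACS2 and deepTools for set 2. For each peak the authors deposited a whole-number score, a fold enrichment (a ratio of pileup to expected background), a −log10 p-value and −log10 q-value, and the summit. Set 1 lists reach down to a −log10 q-value of 2 and set 2 lists to a −log10 p-value of 2, so list lengths and widths are not comparable between sets, and classes were called within a set. In set 2 the q-value ran up to 0.489 for WT STAG1 and 0.41 for WT STAG2, so the weakest set 2 peaks are uncertain. With a −log10 q-value of at least 2, the set 2 shares without the other STAG were 10.5% for STAG1 and 28.6% for STAG2.

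Peaks on chromosomes 1 to 22 and X were kept and ranked by −log10 p within a list. Class shares were compared between antibodies by a two-sided exact permutation test over the set values, with Benjamini-Hochberg adjustment over 13 tests. Sites are not replicates and were not tested. A peak was placed by its midpoint in a promoter (within 1 kb of any start of the GENCODE annotation lifted to GRCh37, the build of hg19), exon, intron or intergenic sequence, in this order. Motifs, also those of NRF1, ZNF143, YY1, ETS (ACCGGAAG) and MITF (TCACGTG), were searched within 100 bp of the summit on both strands. The CTCF core is a 12-letter pattern. Depth was recovered from the fold and p columns. A genome of 2.7 Gb and reads extended to the width of the narrowest peak were assumed, neither of which changes the ratio of a pair from the same set. Intervals for shares were not computed, since the libraries and not the peaks are the replicates. Overlap, ranking, the exact test and the depth recovery were tested on simulated data. Same-numbered libraries share their extraction and size selection by the labels, which is where the pairing comes from, and the fit with this pairing is an alternative in the closing section. Python 3.11.15 with numpy 2.4.6, pandas 2.3.3, scipy 1.17.1 and pysam 0.24.0 was used.

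The members, lists and tests were chosen with earlier results of these data known. Sites were named by a rule: the 5 with the lowest sum of ranks among STAG1-only sites of both sets, among STAG2-only sites of both sets and among sites shared in both sets, and the 3 shared sites leaning most to each STAG. Genes were named from fixed lists, and those beyond the rule (CCDC86, RNPS1 and the other promoters with a CRE) were chosen after their values were seen. Sequences are shown for the 6 strongest set 1 promoters with a CRE that do not lie on chromosome 8. Some items that these rules select are not reported here.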

Additional observations from a re-analysis of the deposited data

Results flagged for a closer look

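Peaks on sequences other than chromosomes 1 to 22 and X were left out of every comparison, and are given here as signal outside the main measurement. There were 2537 in the WT STAG1 list and 2861 in the WT STAG2 list of set 1, and 183 and 247 in set 2. These were 3.84% and 3.49% of the deposited peaks in set 1 and 0.186% and 0.207% in set 2.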

How the results depend on the processing

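Of 153 alternative values, 146 kept the direction of the mean difference or a count within 1.5 times. These include the replicate block, which cannot change a difference, and the fits without a replicate, which only repeat the value of 1 set. The 146 are therefore not all separate checks. No p can pass 0.05 here, so the count says nothing of significance, and it includes sizes that moved, such as the only-share difference, −18.5 points and −1.04 at equal list lengths, and the CTCF difference of set 1, 19.95 points and −14.5 among the strongest 50%. The difference in promoter share turned, to 29.4 points among the strongest 50% of each list and to 1.35 points within bins of strength, and the WT minus STAG2-KD difference in STAG2-only share turned to −0.0668 points at equal list lengths, where the main values were −5.55 and 14.8. The 913 STAG1-only sites of both sets became 1441 at a stricter threshold (a −log10 q-value of 5), 3827 at equal list lengths and 40 among the strongest 50%, where the 5491 STAG2-only sites became 46. The cause was not tested.

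Leaving out either replicate leaves 1 set and no test. The log2 ratio of peak numbers was then −0.32 or −0.27, the only-share difference −19.5 or −17.5, CTCF 13.9 or 19.95, SMC1A −13.4 or −12.1, promoters −9.18 or −1.93, the CTCF core 1.99 or 3.78 and the knockdown difference 7.80 or 21.8 points. Shared minus STAG1-only was 34.5 or 36.3 for CTCF, 46.6 or 47.9 for SMC1A and 38.8 or 39.1 for the percentile, and shared minus STAG2-only 51.9 or 55.8, 34.5 or 34.6 and 43.9 or 45.3. With the replicate block (paired sets, exact sign-flip test) the only-share difference was −18.5 points with p = 0.5, the smallest this test can give, and every other difference likewise kept its value. With 2 libraries per antibody no p under 0.05 can be reached.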
